A study of Mus musculus with 9 samples.

Results

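The tumour suppressor p53 (gene Trp53) and 8 genes that it is known to regulate were followed across sorted mouse tumour cells of a pancreatic and a breast cancer model. The members were the rows of the deposited expression table whose gene symbol was Trp53, Cdkn1a, Mdm2, Bax, Bbc3, Ccng1, Gadd45a, Sesn2 or Zmat3. All 9 were found among the 23799 genes of the table. All 9 were also among the 12832 genes that entered the tests, which needed at least 1 RPKM in at least 2 libraries.

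RNA sequencing had been done on 9 libraries. Cells positive for YFP made up the libraries of pancreatic ductal adenocarcinoma (PDAC): liver metastases numbered 1 and 5, 1 lung metastasis numbered 1, and primary tumours numbered 1 and 5. Cells positive for GFP made up the libraries of breast cancer (BC), taken at 28 days from tumours of 4T1-eGFP cells, a mouse mammary carcinoma line that carries the reporter: lung metastases numbered 4 and 6, and primary tumours numbered 1 and 5. PDAC mice carried p48-Cre, which drives recombination in the pancreas, p53F/+ (1 floxed and 1 unfloxed p53 allele), KrasL/+ and the reporter ROSA-LSL-YFP. The PDAC libraries numbered 5 came from an age of 28.95 weeks. Those numbered 1 came from 25.67 weeks and carried SIRT6F/F in addition, so age, the SIRT6 alleles and the number cannot be told apart. All BC libraries descend from 1 cell line, and the labels do not say whether the libraries of a BC group came from separate mice, so the spread behind the p-values may be partly technical. PDAC libraries of 1 number share age and genotype and may come from the same mouse, so the 5 PDAC libraries need not be 5 animals. The fits reported first took all libraries as independent.

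The p53 protein is a transcription factor that is stabilised after DNA damage and other stress and binds paired decamers in its target genes. Its targets halt the cell cycle, start apoptosis, repair DNA or limit growth signals, and its target Mdm2 marks p53 for destruction, which closes a feedback loop. In human and mouse pancreatic cancer p53 function is frequently lost, and the 4T1 line is reported in the literature to lack functional p53, which the labels do not mention. Because the table gives 1 value per gene, it cannot show the loss of the floxed exons or of 1 allele, and a Trp53 value checks neither genotype.

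Promoter windows of 300 bases, from 250 bases before to 50 bases after an annotated start, were taken from RefSeq on build GRCm38.p6 and matched 8 of the 9 genes with 11 windows. They were searched for the p53 decamer by its consensus, which reads the same on both strands, so 1 search covered both. A decamer was present in 6 of the 11 windows, belonging to Cdkn1a, Ccng1, Gadd45a, Bax, Mdm2 and Trp53, and in 8.36% of all 32851 windows. A full site of 2 adjacent decamers, 20 bases with at most 1 mismatch, was present in 29 of all windows (0.0883%), and 2 of those 29 were the windows of Cdkn1a and Ccng1. These 2 windows are shown because they alone among the members held a full site, and because the results for the 2 genes differ. Each reads 5′ to 3′ on the strand of its gene, with every decamer or full site in capitals.
Cdkn1a, chr17:29090729-29091028, plus strand: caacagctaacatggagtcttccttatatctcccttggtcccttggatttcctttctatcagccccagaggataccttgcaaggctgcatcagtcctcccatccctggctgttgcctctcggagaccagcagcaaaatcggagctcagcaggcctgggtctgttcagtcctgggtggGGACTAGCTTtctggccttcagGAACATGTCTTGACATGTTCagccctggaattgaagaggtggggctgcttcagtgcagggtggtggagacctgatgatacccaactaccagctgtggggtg
Ccng1, chr11:40755237-40755536, minus strand: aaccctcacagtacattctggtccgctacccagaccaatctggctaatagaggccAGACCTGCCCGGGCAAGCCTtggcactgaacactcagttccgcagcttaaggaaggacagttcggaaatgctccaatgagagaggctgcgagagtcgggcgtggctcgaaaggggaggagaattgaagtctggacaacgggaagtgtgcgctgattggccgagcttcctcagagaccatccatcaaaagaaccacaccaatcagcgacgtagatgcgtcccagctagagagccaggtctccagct
The full site of Cdkn1a covered bases 51 to 32 before this annotated start and lay 2841 bases before the second annotated start of the gene, whose own window held no decamer. A further decamer lay upstream of it in the same window. The full site of Ccng1 covered bases 195 to 176 before its start. A match of letters is a description of the window and was not tested for binding.

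Values are RPKM, reads per kilobase of gene scaled to a read total per library, and therefore comparable between genes. Bax, Gadd45a and Cdkn1a were the most abundant members, and Zmat3 the least. Bax lay at the 94.8 to 97.9 percentile of the tested genes in PDAC libraries and at the 96.9 to 97.4 percentile in BC libraries. Zmat3 reached 1 RPKM in only 2 libraries.

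**Figure D1:**
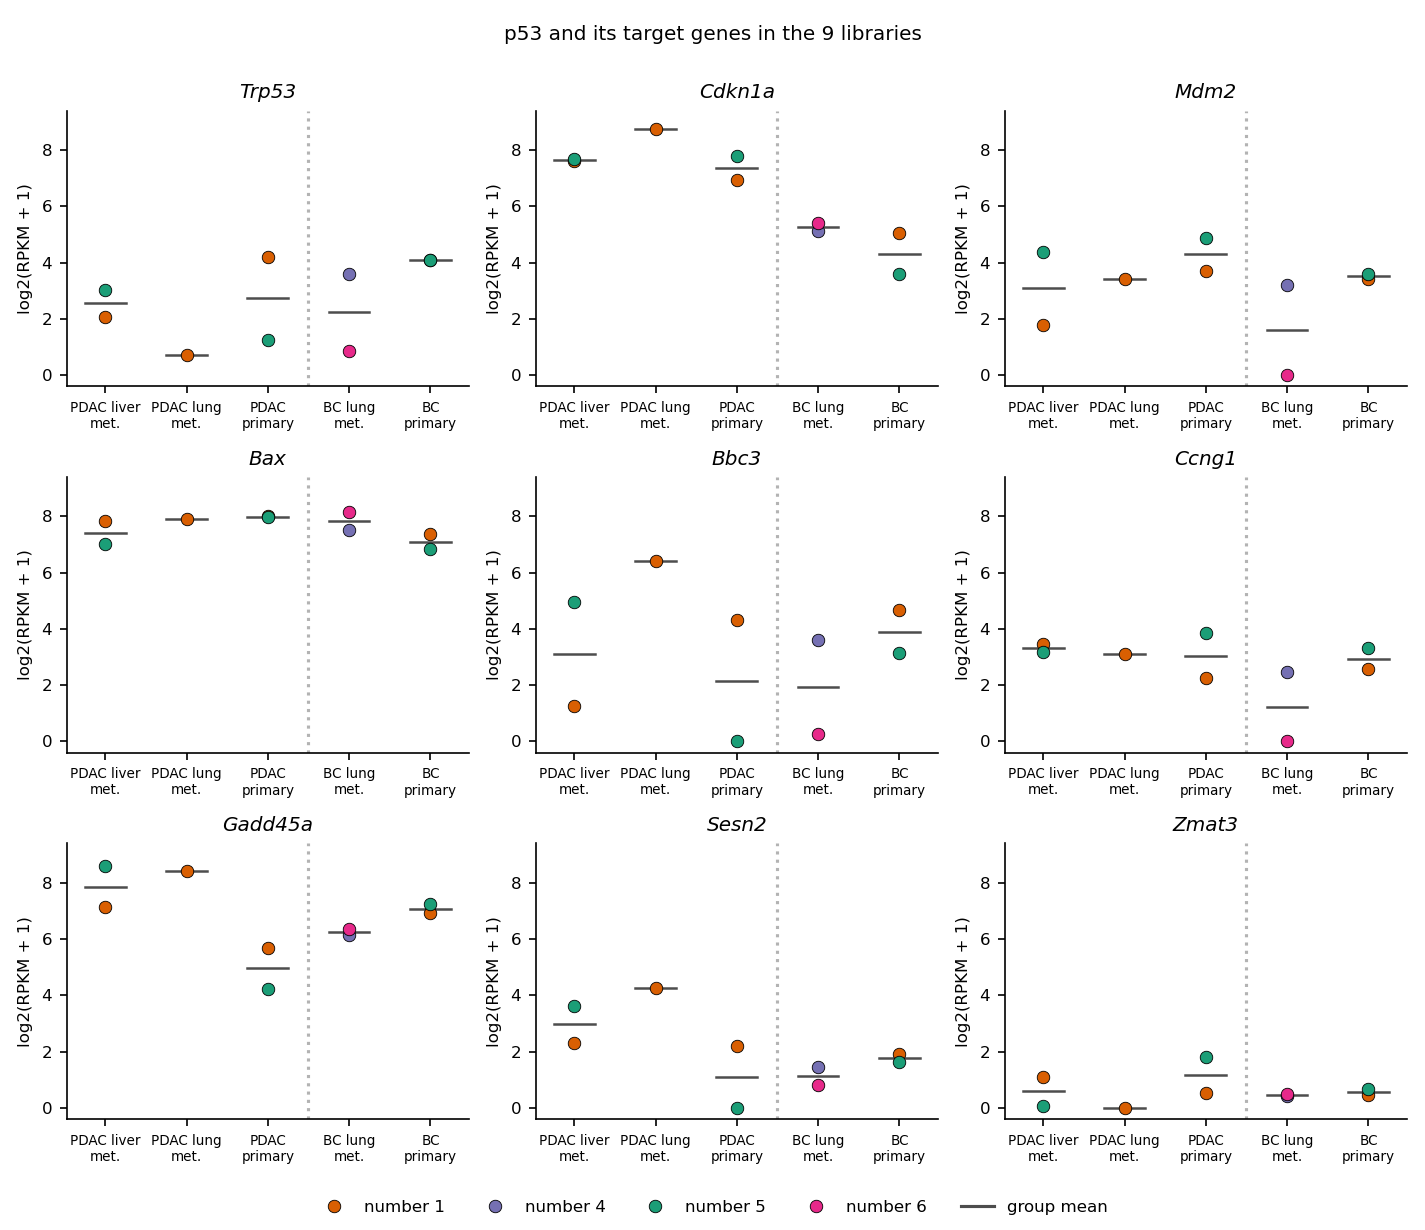
Expression of the 9 genes in each library, as log2(RPKM + 1), by group; a point is 1 library, its colour the number in the label, the line the group mean, and the dotted line separates PDAC from BC. Cdkn1a is the gene whose 5 PDAC points, 122 RPKM and above, all lie over the 4 BC points, 41.0 RPKM and below.

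Cdkn1a, which encodes the cyclin-dependent kinase inhibitor p21 and is the classic p53 target of cell cycle arrest, rose in the PDAC model relative to the BC model. It stood at 195 and 206 RPKM in PDAC liver metastases 1 and 5, 425 RPKM in the PDAC lung metastasis, and 122 and 218 RPKM in PDAC primaries 1 and 5. It stood at 34.0 and 41.0 RPKM in the BC lung metastases 4 and 6, and at 31.9 and 10.9 RPKM in BC primaries 1 and 5. Every PDAC library was above every BC library. The PDAC mean was 233 ± 113 RPKM (SD, n = 5 libraries) and the BC mean 29.4 ± 12.9 RPKM (SD, n = 4 libraries). With the site as a covariate the difference was 2.89 ± 0.50 on the log2(RPKM + 1) scale (SE; limma with Benjamini-Hochberg adjustment over all tested genes, adjusted p = 0.00778). Cdkn1a was the only member of the 9 called in this comparison, in which 2.97% of all tested genes were called (1.13% higher and 1.84% lower in PDAC). An alternative took the PDAC number as a replicate block and placed all BC libraries with number 1. Its difference therefore refers to PDAC number 1 against BC, not to the mean of both numbers. There 200 genes were called in place of 381, and Cdkn1a was still among them. It was also the only member whose libraries did not overlap, beside 2.72% of all genes above and 6.23% below without overlap. Over 17 alternative settings, including each library left out, the difference ran from 2.41 to 3.12 and the adjusted p from 0.00499 to 0.0391.

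The estimated reads behind Cdkn1a were 11998 to 26632 per library in PDAC and 5097 to 9494 in BC. Within its library the gene ranked at the 94.7 to 98.7 percentile in PDAC and at the 65.2 to 85.9 percentile in BC, so the separation did not depend on the scaling of a library. The ratio of Cdkn1a to Bax RPKM in the same library was 0.864 and 1.61 in PDAC liver metastases 1 and 5, 1.77 in the PDAC lung metastasis, and 0.473 and 0.879 in PDAC primaries 1 and 5. The same ratio was 0.188 and 0.144 in the BC lung metastases 4 and 6, and 0.193 and 0.0975 in BC primaries 1 and 5. These ratios to Bax did not overlap between the models. Nor did the ratios of Cdkn1a to Gadd45a, with the lowest in PDAC at 0.540 and the highest in BC at 0.511. The ratios to Trp53 and to Mdm2 did overlap, through BC lung metastasis 6 at 51.6 and 4850.

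**Figure D2:**
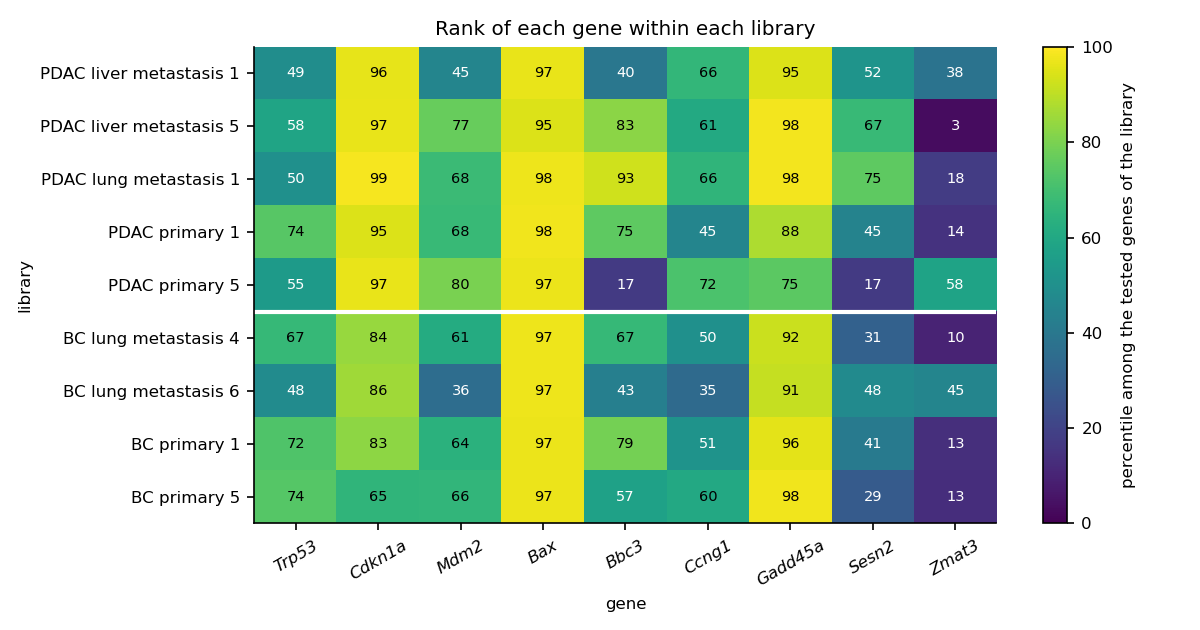
Rank of each member among the tested genes of a library, as a percentile (0 lowest, 100 highest); rows are libraries, PDAC above and BC below the white line, and columns are genes. Cdkn1a ranks at or above the 94.7 percentile in the 5 PDAC libraries and at or below the 85.9 percentile in the 4 BC libraries, while Bax ranks at or above the 94.8 percentile in every library.

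Split by site, the Cdkn1a difference kept its size with fewer libraries. Between PDAC and BC primaries it was 3.05 ± 0.70 (SE, 2 against 2 libraries, limma adjusted p = 0.160), and it was called only without PDAC primary 1 (3.47, adjusted p = 0.0353). The alternatives of that comparison ran from an adjusted p of 0.0353 to 0.986. Between PDAC and BC metastases it was 2.94 ± 0.65 (3 against 2 libraries, adjusted p = 0.0608). In the PDAC libraries numbered 1, with the SIRT6F/F label, Cdkn1a spanned 122 to 425 RPKM, and in those numbered 5 it was 206 and 218 RPKM, so the numbers overlapped.

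Markers of some other cells moved with the model although the cells had been sorted. Summed over each marker list, PDAC libraries held 879 to 13855 RPKM of leukocyte genes, against 311 to 590 RPKM in BC. Of the leukocyte genes 5 of 10 were called higher in PDAC, where 1.13% of all tested genes were. Erythroid genes summed to 277 to 364568 RPKM in PDAC, against 26.2 to 585 RPKM in BC, and 7 of 9 were called higher. Lymphocyte genes summed to 34.3 to 33890 RPKM in PDAC, against 10.6 to 63.0 RPKM in BC, with 1 of 10 called higher, and neutrophil genes to 367 to 217649 RPKM in PDAC, against 70.4 to 2550 RPKM in BC, with none called. Epithelial markers of the sorted tumour cells summed to 132 to 17272 RPKM in PDAC and 3005 to 5859 RPKM in BC. The lowest sum was that of the PDAC lung metastasis, which had the highest Cdkn1a, at 425 RPKM. PDAC liver metastasis 5 had an epithelial sum of 269 RPKM. The highest sum was that of PDAC primary 5, with Cdkn1a at 218 RPKM. No marker of these 5 lists was at 0 in all libraries. The part of these cells in the Cdkn1a difference, or in that of any other gene named below, was not tested. PDAC primary 5 had an erythroid sum of 277 RPKM and a lymphocyte sum of 34.3 RPKM, inside the BC ranges, and its Cdkn1a was 218 RPKM. Of that lymphocyte sum 32.2 RPKM was Trbc2, the lymphocyte gene called higher in PDAC, which had at most 1.37 RPKM in BC. The same library was above the BC ranges in its leukocyte sum of 879 RPKM, its hepatocyte sum of 248 RPKM (0.112 to 0.252 RPKM in BC) and its lung epithelial sum of 462 RPKM (1.57 to 38.8 RPKM in BC). Nearly all of the hepatocyte sum was Apoa1, at 245 RPKM, while Alb was listed at 0. Nearly all of the lung epithelial sum was Sftpd, at 462 RPKM, while Sftpc was at 0.278 RPKM. These 2 sums thus rest on single genes. In these bulk libraries more cells with a transcript and more transcript per cell cannot be told apart. The proliferation genes summed to 0.197 to 290 RPKM in PDAC and 279 to 759 RPKM in BC, and all 10 had negative differences of which none was called. All 6 tested fibroblast genes also had negative differences, with a median of -1.13. Endothelial genes had 4 positive and 2 negative differences. None of either list was called.

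Among the 6 cyclin-dependent kinase inhibitor genes related to Cdkn1a in function, the differences went in both directions. Cdkn2c, which encodes the Cdk4 and Cdk6 inhibitor p18, was the 1 called gene, where 2.97% of all tested genes were called and 1.84% were called lower. In PDAC Cdkn2c fell by 4.21 ± 0.95 on the log2 scale (SE, limma adjusted p = 0.0328). It stood at 0.108 and 15.8 RPKM in PDAC liver metastases 1 and 5, 9.33 RPKM in the PDAC lung metastasis, and 5.92 and 0.0119 RPKM in PDAC primaries 1 and 5, against 75.7 and 88.0 RPKM in the BC lung metastases 4 and 6 and 90.2 and 47.2 RPKM in BC primaries 1 and 5. Cdkn2b, encoding p15, did not pass the test at 3.83 (adjusted p = 0.104), nor did Cdkn1c, encoding p57, at 2.71 (adjusted p = 0.119). The list had 4 positive and 2 negative differences and a median of 2.61, where the median of all tested genes was -0.21.

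Trp53 itself varied widely within both models and did not pass the test. It stood at 3.18 and 7.20 RPKM in PDAC liver metastases 1 and 5, 0.639 RPKM in the PDAC lung metastasis, and 17.5 and 1.40 RPKM in PDAC primaries 1 and 5. It stood at 11.2 and 0.794 RPKM in the BC lung metastases 4 and 6, and at 16.0 and 15.9 RPKM in BC primaries 1 and 5. The models overlapped: the highest library was a PDAC primary, and BC lung metastasis 6 was below 4 of the 5 PDAC libraries. The difference was -0.77 ± 0.94 (SE, adjusted p = 0.679). The estimated Trp53 reads ranged from 33 to 3324 in PDAC libraries and from 150 to 8448 in BC libraries, so the lowest value rests on few reads. The gene overlaps its neighbour Wrap53 on the opposite strand and strand is not recorded by the library kit, so reads of the overlap cannot be assigned to either. Trp53 reads were present in all 4 libraries derived from 4T1, which does not bear on the function of the protein.

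The genes whose log2(RPKM + 1) followed Trp53 most closely over the 9 libraries, among 12832 genes, were Gfm1 (Pearson r = 0.985), Xrcc6 (0.982) and Ptgr2 (0.979). Those closest to Cdkn1a were Prkag1 (0.973), the predicted gene Gm1821 (0.968) and H2afj (0.959). Between Trp53 and Cdkn1a themselves r was -0.57. These are descriptions over libraries that share model, depth and scaling, and the best of many genes will be high. Gfm1 and Xrcc6 had at most 0.286 RPKM in the PDAC lung metastasis, PDAC primary 5 and BC lung metastasis 6, which are the 3 libraries with the fewest genes above 0 (9530 to 10938, against 12144 to 20478 in the rest) and also the 3 with the lowest Trp53.

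Mdm2, the ubiquitin ligase of the feedback loop, was at 2.42 and 19.9 RPKM in PDAC liver metastases 1 and 5, 9.71 RPKM in the PDAC lung metastasis, and 12.0 and 28.2 RPKM in PDAC primaries 1 and 5. It was at 8.29 and 0.00844 RPKM in the BC lung metastases 4 and 6, the second of these about 2 reads, and at 9.67 and 11.2 RPKM in BC primaries 1 and 5. The models overlapped, and the difference of 1.21 ± 0.91 did not pass (SE, adjusted p = 0.470). Ccng1, encoding cyclin G1 of the same feedback circuit, was at 10.2 and 8.15 RPKM in PDAC liver metastases 1 and 5, 7.60 RPKM in the PDAC lung metastasis, and 3.77 and 13.5 RPKM in PDAC primaries 1 and 5. It was at 4.53 and 0.00609 RPKM in the BC lung metastases 4 and 6, the second of these 1 read, and at 4.95 and 8.89 RPKM in BC primaries 1 and 5. The models overlapped here too, with a difference of 1.16 ± 0.84 (adjusted p = 0.458). Cdkn1a and Ccng1 thus shared a full p53 site in the window printed above, and of the 2 only Cdkn1a passed; the difference between the 2 genes was not tested.

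Bax, the pore-forming effector of mitochondrial apoptosis, was at 226 and 128 RPKM in PDAC liver metastases 1 and 5, 240 RPKM in the PDAC lung metastasis, and 258 and 248 RPKM in PDAC primaries 1 and 5. It was at 181 and 284 RPKM in the BC lung metastases 4 and 6, and at 165 and 112 RPKM in BC primaries 1 and 5. The models overlapped, with the highest and the lowest value both in BC, and the difference was 0.27 ± 0.42 (SE, adjusted p = 0.758). Bbc3, which encodes the BH3-only trigger Puma, was at 1.41 and 30.2 RPKM in PDAC liver metastases 1 and 5 and 85.0 RPKM in the PDAC lung metastasis. PDAC primary 1 had 19.1 RPKM, and PDAC primary 5 was listed at 0. The BC values were 11.2 and 0.203 RPKM in lung metastases 4 and 6, and 24.3 and 7.75 RPKM in primaries 1 and 5. Its spread within each model was wider than the difference of 0.46 ± 1.36 (adjusted p = 0.881).

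Of the BCL-2 family, to which both apoptosis genes belong, 12 of 13 listed genes were tested and none was called between PDAC and BC by limma, with 7 positive and 5 negative differences. Over all tested genes 381 were called (2.97%), and 2552 had an unadjusted p under 0.05. The smallest p belonged to Pmaip1, which encodes the p53-regulated BH3-only protein Noxa, with a difference of 3.55 ± 0.91 (SE, adjusted p = 0.0556). Pmaip1 was at 38.5 and 41.6 RPKM in PDAC liver metastases 1 and 5, 95.8 RPKM in the PDAC lung metastasis, and 10.5 and 2.71 RPKM in PDAC primaries 1 and 5. Its value was 1.62 RPKM and a listed 0 in the BC lung metastases 4 and 6, and at 0.793 and 1.17 RPKM in BC primaries 1 and 5. All PDAC values were above all BC values.

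Gadd45a, a stress sensor of growth arrest and DNA repair, was at 139 and 382 RPKM in PDAC liver metastases 1 and 5, 343 RPKM in the PDAC lung metastasis, and 50.2 and 17.9 RPKM in PDAC primaries 1 and 5. It was at 69.3 and 80.1 RPKM in the BC lung metastases 4 and 6, and at 120 and 151 RPKM in BC primaries 1 and 5. Averaged over sites the models were nearly level, with a difference of 0.02 ± 0.73 (SE, adjusted p = 0.990), but the sites were ordered differently in each model. Within PDAC the 3 metastases were above both primaries, and within BC both metastases were below both primaries.

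Sesn2, the stress-induced inhibitor of mTORC1 signalling, was at 4.00 and 11.3 RPKM in PDAC liver metastases 1 and 5, 18.2 RPKM in the PDAC lung metastasis, and 3.64 RPKM in PDAC primary 1, and was listed at 0 in PDAC primary 5. It was at 1.73 and 0.739 RPKM in the BC lung metastases 4 and 6, and at 2.75 and 2.12 RPKM in BC primaries 1 and 5. The models overlapped only through PDAC primary 5, and the difference was 0.94 ± 0.86 (SE, adjusted p = 0.562). Zmat3, an RNA-binding zinc finger protein induced by p53, was at 1.14 and 0.0510 RPKM in PDAC liver metastases 1 and 5, listed at 0 in the PDAC lung metastasis, and at 0.454 and 2.46 RPKM in PDAC primaries 1 and 5. It was at 0.353 and 0.392 RPKM in the BC lung metastases 4 and 6, and at 0.366 and 0.601 RPKM in BC primaries 1 and 5. The highest and the lowest Zmat3 values were both in PDAC, and the difference was 0.24 ± 0.43 (adjusted p = 0.795).

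Over the 9 members the median log2 difference between PDAC and BC was 0.46, with 8 of 9 positive, beside a median of -0.21 and 42.5% positive over all tested genes. The scaling moved that background: the median over all genes was -0.60 after rescaling without the haemoglobin genes and -0.02 after quantile scaling. Of the calls over all genes 38.1% were higher in PDAC (145 higher and 236 lower), against 20.7% after rescaling without haemoglobin (112 higher and 429 lower). Of the 8 positive members, Bax and Gadd45a turned negative under both scalings and Bbc3 after rescaling without haemoglobin.

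**Figure D3:**
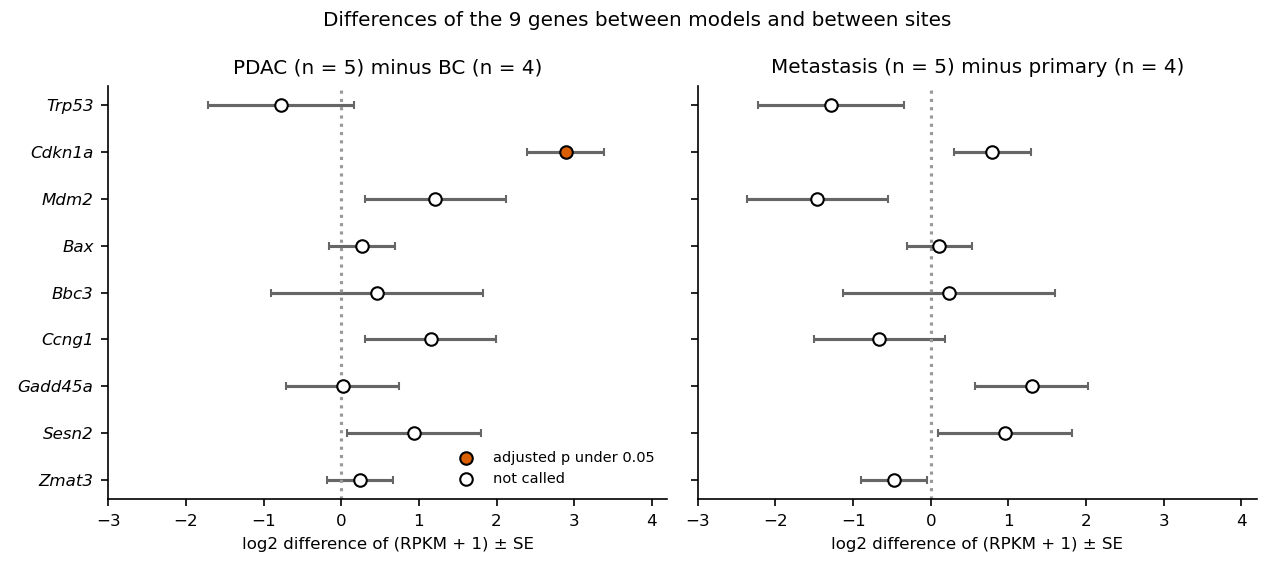
Log2 differences of the 9 genes on the log2(RPKM + 1) scale with their SE, for PDAC minus BC with the site as covariate (left) and metastasis minus primary with the model as covariate (right); filled points passed an adjusted p of 0.05. Cdkn1a between the models, at 2.89, is the only filled point.

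Between metastases and primaries over both models none of the 9 members was called by limma, where 1 of all tested genes was called (0.00779%, and 0 genes with the replicate block) and 628 had an unadjusted p under 0.05. The differences were 1.30 ± 0.73 for Gadd45a, 0.95 ± 0.86 for Sesn2, 0.79 ± 0.50 for Cdkn1a, 0.23 ± 1.36 for Bbc3 and 0.11 ± 0.42 for Bax (SE). They were -0.47 ± 0.43 for Zmat3, -0.66 ± 0.84 for Ccng1, -1.28 ± 0.94 for Trp53 and -1.46 ± 0.91 for Mdm2. The smallest adjusted p of a member was 0.853. No member separated the 5 metastases from the 4 primaries, beside 0.366% of all genes above and 0.538% below without overlap. The member median was 0.11 and that of all tested genes -0.16.

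Within the PDAC model Gadd45a gave the lowest p of the members in both metastatic sites. Against PDAC primaries it was 2.89 ± 0.73 higher on the log2 scale in liver metastases (SE, 2 against 2 libraries, unadjusted p = 0.0027, adjusted p = 0.338) and 3.47 ± 0.90 higher in the single lung metastasis (adjusted p = 0.118), where the lone library was taken to have the spread of the other groups. Neither passed. In the liver comparison 0.00779% of all genes were called and in the lung comparison 0.584%, none of them a member, and with the replicate block 0 genes were called in either. Bbc3 and Sesn2 differed by 4.26 ± 2.21 and 3.15 ± 1.37 in the lung metastasis (adjusted p = 0.443 and 0.347) without passing. In the lung metastasis 4 members were above and 4 below the primaries without overlap, beside 23.9% and 34.4% of all genes. In the liver metastases 2 members were above and 1 below the primaries without overlap, beside 15.4% and 10.2% of all genes. Both PDAC lung and liver comparisons share the PDAC primaries. Leukocyte genes summed to 9014 and 13855 RPKM in PDAC liver metastases 1 and 5 and 13273 RPKM in the PDAC lung metastasis, against 3856 and 879 RPKM in PDAC primaries 1 and 5. Neutrophil genes summed to 8836 to 217649 RPKM in the 3 PDAC metastases, against 1311 and 367 RPKM in the primaries, and erythroid genes to 203082 to 364568 RPKM, against 61841 and 277 RPKM. Hepatocyte genes summed to 956 and 2425 RPKM in the liver metastases, against 1.92 and 248 RPKM in the primaries, and lung epithelial genes to 36166 RPKM in the lung metastasis, against 346 and 462 RPKM. Single genes made up nearly all of the higher sums in the primaries. In PDAC primary 5 these were Apoa1 at 245 RPKM and Sftpd at 462 RPKM, and in PDAC primary 1 Napsa at 343 RPKM. All 10 epithelial markers of the sorted tumour cells had negative differences, with a median of -2.28 in the liver metastases and -5.50 in the lung metastasis, and none was called. The part of these cells in the Gadd45a values was not tested.

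Within the BC model no member was called between lung metastases and primaries by limma, and no gene of the table was (0%; 265 had an unadjusted p under 0.05). Gadd45a had a difference of -0.84 ± 0.73, Mdm2 of -1.90 ± 1.38, Trp53 of -1.86 ± 1.37 and Ccng1 of -1.70 ± 1.22 (SE, 2 against 2 libraries). The low values of Mdm2, Trp53 and Ccng1 came from BC lung metastasis 6, while BC lung metastasis 4 lay near the primaries. Without overlap 2 members were above and 5 below the primaries, beside 15.8% and 27% of all genes.

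The difference of the metastasis effects, PDAC liver metastasis against primary minus BC lung metastasis against primary, was 3.74 ± 1.04 for Gadd45a (SE, limma unadjusted p = 0.0047, adjusted p = 0.874) and 2.51 ± 1.58 for Sesn2. It was -1.30 ± 0.83 for Bax. No gene was called for this difference (0%; 530 had an unadjusted p under 0.05). The 2 metastatic sites are different organs, so the model and the organ cannot be told apart in it.

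Between the primaries of the models none of the 9 members was called, where 0.0312% of all genes were called (4 genes, and 1 with the replicate block). Cdkn1a, Mdm2 and Bax were above without overlap and Gadd45a below, at -2.12 ± 0.73 (SE, limma adjusted p = 0.282), beside 15.7% and 31.5% of all genes. Between the metastases none was called either, where 1.09% of all genes were (140 genes, and 25 with the replicate block). Both counts with the replicate block refer to PDAC number 1 against BC. There Cdkn1a, Ccng1, Gadd45a and Sesn2 were above without overlap and no member below, beside 11.6% and 15.3% of all genes. Gadd45a differed by 1.90 ± 0.69 (adjusted p = 0.176) and Sesn2 by 2.49 ± 1.05 (adjusted p = 0.239) between the metastases.

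Of 39 other p53 targets listed from the literature, 38 were in the table and 36 were tested. Between PDAC and BC 2 were called higher and 1 lower, where 1.13% of all tested genes were called higher and 1.84% lower, with 17 positive and 19 negative differences and a median of -0.17, near the -0.21 of all tested genes. Gdf15, a stress-induced cytokine, rose in PDAC by 4.47 ± 0.83 on the log2 scale (SE, limma adjusted p = 0.0121). Gdf15 was at 112 and 15.5 RPKM in PDAC liver metastases 1 and 5, 22.7 RPKM in the PDAC lung metastasis, and 11.7 and 30.5 RPKM in PDAC primaries 1 and 5. Its value was 0.591 RPKM and a listed 0 in the BC lung metastases 4 and 6, and at 0.142 and 0.260 RPKM in BC primaries 1 and 5. No BC library reached 1 RPKM, and every PDAC library was above all of them.

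Btg2, an antiproliferative co-factor of mRNA decay, rose in PDAC by 2.98 ± 0.57 (SE, limma adjusted p = 0.0152). It was at 135 and 668 RPKM in PDAC liver metastases 1 and 5, 504 RPKM in the PDAC lung metastasis, and 88.2 and 162 RPKM in PDAC primaries 1 and 5, against 28.1 and 26.3 RPKM in the BC lung metastases 4 and 6 and 25.8 and 26.4 RPKM in BC primaries 1 and 5. The BC values were close together and all below the PDAC values. The part of cells other than tumour cells in the Gdf15 and Btg2 differences was not tested. In PDAC Tgfa, which encodes a ligand of the EGF receptor, fell by 3.10 ± 0.64 (adjusted p = 0.0220), with at most 1.08 RPKM in PDAC and 4.26 to 14.4 RPKM in BC.

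**Figure D4:**
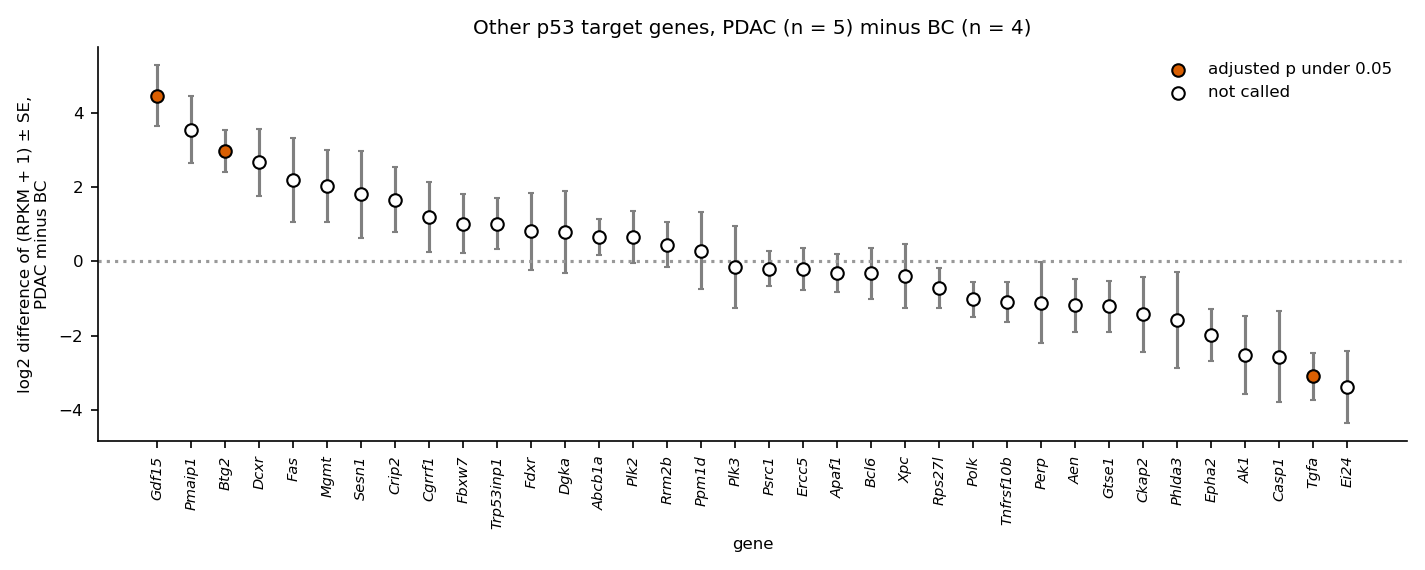
Log2 differences of the 36 other tested p53 target genes, PDAC minus BC, on the log2(RPKM + 1) scale with their SE, in order of size; filled points passed an adjusted p of 0.05. Gdf15 and Btg2 are filled above 0 and Tgfa below, and 17 genes lie above 0 and 19 below.

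Between metastases and primaries none of the 36 was called, where 0.00779% of all tested genes were. The 3 with the smallest p were Plk3, a stress-responsive kinase, at 2.30, Dcxr at -1.91 and Perp, a desmosome and apoptosis gene, at -1.88, all with adjusted p of 0.853 or more by limma.

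Of the 20 listed regulators of p53, 17 were tested and 1 was called between the models, where 2.97% of all tested genes were called. In PDAC Chek1, the checkpoint kinase that acts on p53 after replication stress, fell by 2.65 ± 0.58 (SE, limma adjusted p = 0.0284), with at most 0.982 RPKM in PDAC and 4.96 to 9.79 RPKM in BC. Cdkn2a, the locus of the Mdm2 inhibitor Arf and of p16, did not pass at 2.52 (adjusted p = 0.160). It was at 19.5 and 0.141 RPKM in PDAC liver metastases 1 and 5, listed at 0 in the PDAC lung metastasis, and at 7.86 and 19.0 RPKM in PDAC primaries 1 and 5, while BC values did not exceed 0.0102 RPKM. The value covers both products of the locus. The regulators had 8 positive and 9 negative differences with a median of -0.12. Between metastases and primaries none of them was called, where 0.00779% of all tested genes were.

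Of 12 paralogues of the members 8 were tested, and none was called in either comparison. Of all tested genes 2.97% were called between the models and 0.00779% between metastases and primaries. The smallest p between the models belonged to Sesn3, a paralogue of Sesn2, at -3.08 (adjusted p = 0.0506), followed by Gadd45g at 1.38 (adjusted p = 0.0790). Of 10 listed targets of ATF4, the stress factor that also induces Sesn2, 9 were tested and none was called between the models, with 3 positive and 6 negative differences.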

How the data were processed

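The authors deposited 1 table of 23799 genes, and all 9 columns of values were used. It is named CPM, but its columns summed to 288171 to 992077. Low values times the gene's exonic length in GENCODE M21 fell within 0.02 of whole reads for 62.5 to 74.2% of values, and the values alone for 4.36 to 5.23%, so the deposited values were read as RPKM. Depth estimated this way was 2.13e+07 to 1.28e+08 reads on genes per library, and estimated reads of a gene rest on these lengths. In PDAC liver metastasis 5 that depth was 6.52e+07, above the estimated scaling total of 3.64e+07 reads. In the PDAC lung metastasis it was 2.13e+07 against 1.28e+07, and in BC primary 5 it was below, at 1.28e+08 against 1.31e+08. The cause of this mismatch was not tested. Per the submitters' processing notes, mm9 was the genome build. The aligner and counter are not given in the sources used here. Per the labels' protocols, libraries were made with SMART-seq v4, which copies polyadenylated RNA, and Nextera XT.

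Tests used limma 3.58.1 in R 4.3.3 (trend, robust) on log2(RPKM + 1), with two-sided p-values adjusted by Benjamini and Hochberg's method over the 12832 genes that reached 1 RPKM in 2 or more libraries, and calls at an adjusted p under 0.05. Differences on this scale understate changes of low genes. Model and site were terms of 1 fit, and group contrasts came from a fit of 5 group means. The scripts were tested on simulated data. No count test was run because whole reads were not resolved without lengths. The members, lists and alternatives were chosen with earlier results of these data known. Of the other lists, genes called and up to the 3 of smallest p were named. PDAC libraries of 1 number share age and genotype labels, so the number was tried as a pairing by mouse in an alternative (the replicate block). The fits reported first do not pair libraries. The block placed all BC libraries with number 1, so its differences between the models refer to PDAC number 1 against BC. Over 12832 genes, the primary and the liver metastasis numbered 1 deviated from their group means with a correlation of -0.165. This value cannot decide whether the libraries are paired, because each group has 2 libraries and their detection differed. Genes above 0 were 15907 in PDAC primary 1 and 10410 in PDAC primary 5, but 12144 in PDAC liver metastasis 1 and 18717 in PDAC liver metastasis 5. The alternatives were another pseudocount (0.1), filter, scaling or moderation, the replicate block, fewer groups, and libraries left out.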

Additional observations from a re-analysis of the deposited data

Results flagged for a closer look

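In 36 checks of the members for a library far from the rest of its group, 5 values stood out. The criterion flags about 1 in 20 independent groups by chance, but these 36 groups share libraries and mix sites or models, and the chance rate in these data was not measured. Bax was lowest among PDAC libraries in liver metastasis 5, at 128 RPKM, while the other 4 PDAC libraries lay between 226 and 258 RPKM. Among BC libraries, lung metastasis 6 was far below the other 3 for Trp53, at 0.794 RPKM, and for Mdm2, at 0.00844 RPKM; this library had 10938 genes above 0, the fewest of the BC libraries. Zmat3 was highest among BC libraries in primary 5, at 0.601 RPKM, above 0.353 to 0.392 RPKM in the rest. Trp53 was lowest among the 4 primaries in PDAC primary 5, at 1.40 RPKM, below 15.9 to 17.5 RPKM in the other 3; that library had 10410 genes above 0.

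For 3 of the 9 members PDAC liver metastases and BC lung metastases were ordered in opposite ways against their primaries, without overlap in either model. The same held for 787 of the 12832 tested genes (6.13%), of which 541 were above in PDAC and below in BC, as Gadd45a and Sesn2 were, and 246 the reverse, as Bax was. The difference of the metastasis effects, PDAC liver minus BC lung, was 3.74 for Gadd45a, 2.51 for Sesn2 and -1.30 for Bax on the log2 scale. By limma none passed the adjustment over all tested genes (adjusted p of 0.874 or more). In each model 2 of 2 metastases lay on the stated side of both primaries. That is the rule by which these 3 members were picked, so it adds no support.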

How the results depend on the processing

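Values of the members under the alternatives were counted for PDAC against BC, metastases against primaries, and the primaries of the models. The other comparisons were not part of this count. Of the 455 values counted, 419 kept their direction and their side of the threshold and 35 changed sign. The remaining 1 newly passed, which was Cdkn1a between the primaries without PDAC primary 1 (3.47). The cause was not tested in any case. Every sign change belonged to a member that had not passed. Zmat3 has no value under the filter of at least 5 RPKM, with only the groups compared, without the 3 libraries with the fewest genes, without PDAC liver metastasis 1 or without PDAC primary 5. The additive fits have no value for only the groups compared. Comparisons with the PDAC lung metastasis, which are outside this count, have none without that library.

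Between PDAC and BC, 207 genes were called with no filter, 1145 without the 3 libraries with the fewest genes, 200 with the PDAC number as a replicate block, and 153 to 818 with 1 library left out (153 without BC lung metastasis 4, 818 without PDAC primary 5). Between metastases and primaries the count was 0 with a pseudocount of 0.1, no filter, rescaling without haemoglobin, no trend, without the 3 libraries or with the replicate block, 3 with at least 5 RPKM, 6 with quantile scaling, and 0 to 10 with 1 library left out. Between the primaries of the models it was 0 with no filter, 13 with quantile scaling, 1 with no trend, 72 without the 3 libraries, 1 with the replicate block, 0 with only the groups compared, and 1 to 803 with 1 library left out (803 without PDAC primary 1). Between BC lung metastases and primaries it was 73 with only the groups compared. For PDAC liver metastases against primaries it was 0 with a pseudocount of 0.1, no filter, rescaling, quantile scaling, without the 3 libraries or with the replicate block, 2 with no trend, and 0 to 1032 with 1 library left out. For the PDAC lung metastasis against primaries it was 270 with a pseudocount of 0.1, 251 with no filter, 161 with quantile scaling, 0 with no trend, the replicate block or only the groups compared, and 0 to 1547 with 1 library left out. Between the metastases of the models it was 60 with a pseudocount of 0.1, 0 with no filter, 25 with the replicate block, 399 with only the groups compared, and 0 to 1233 with 1 library left out. For the difference of metastasis effects it was 0 to 30. In each of these ranges except that between PDAC and BC, the highest count came without PDAC primary 1.

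Between PDAC and BC, Bax became -0.23 after rescaling without haemoglobin and -0.086 after quantile scaling, Gadd45a -0.48 and -0.34, and Bbc3 -0.044 after rescaling and -0.029 without the 3 libraries. With 1 library left out Bbc3 ran from -0.73 to 1.62 and Gadd45a from -0.48 to 0.66. Between metastases and primaries, Bax became -0.32 after rescaling, -0.17 after quantile scaling and -0.098 without the 3 libraries, Bbc3 -0.12 after rescaling and -0.75 without the 3 libraries, and Ccng1 0.30 without the 3 libraries. With 1 library left out Bax ran from -0.12 to 0.30 and Bbc3 from -1.17 to 1.22. Between the primaries, without the 3 libraries, Trp53 became 0.12, Bbc3 0.43, Ccng1 -0.68 and Sesn2 0.44. With the replicate block, which refers to PDAC number 1, Mdm2 became -0.17 and Ccng1 -0.21, and after rescaling Ccng1 became -0.38. With 1 library left out Trp53 ran from -2.83 to 0.12, Bbc3 from -3.90 to 0.43, Ccng1 from -0.68 to 0.92 and Sesn2 from -1.77 to 0.44. Within these comparisons the replicate block changed no call of a member.

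By estimated reads, the lowest values of Ccng1 and Mdm2, in BC lung metastasis 6, rest on about 1 and 2 reads, and the lowest of Trp53, in the PDAC lung metastasis, on 33.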
